A study of Mus musculus with 8 samples.

Results

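The interleukin-1 (IL-1) family comprises cytokines of epithelia and immune cells, their receptors and the molecules that hold them back. The 10 genes described here are 5 ligands (Il1a, Il1b, Il1rn, Il18 and Il33), 4 receptor chains (Il1r1, Il1r2, Il1rap and Il1rl1) and Il18bp, a secreted binding protein. They were picked by name from the 54532 genes of a cornea expression table, through their Ensembl identifiers in a mouse annotation, and all 10 had reads and were tested. IL-1α and IL-33 are held in epithelial cells and released when these are damaged, whereas IL-1β and IL-18 are made as precursors that an inflammasome and caspase-1 cleave. IL-1α and IL-1β signal through Il1r1 together with the shared co-receptor Il1rap, and the kinases recruited by MyD88 then activate NF-κB. Il1rn (the IL-1 receptor antagonist) occupies Il1r1 without signaling, Il1r2 is a decoy receptor, and Il18bp captures IL-18. In the cornea, IL-1 is known as an early signal of injury, and the antagonist is known for restraining inflammation at the ocular surface.

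The study sequenced total RNA from naive, that is untouched, corneas of 2 inbred mouse strains, with 4 BALB/cN corneas (strain label Balb/c) and 4 C57BL/6N corneas. No agent was applied and no allele was engineered in either group, and the study's methods state that the sequenced mice were male. The methods give an age for the parental mice used in corneal phenotyping but none for sequencing itself, and the number of mice behind the corneas is not given in the sources used here. As nothing states that the corneas of a strain came from separate mice, p-values measure the spread between these samples only. The strains were compared to find expression differences that accompany their unlike corneal lymphatic vessels. Values are regularized logarithms (rlog, log2 scale) that the authors derived from read counts. This transformation pulls weakly expressed genes towards their mean and so understates their change. Read counts recovered from the rlog values are therefore given as well, as reads normalized to equal depth. The recovered depth was 36.7 to 41.2 M reads in BALB/cN and 29.7 to 37.0 M in C57BL/6N.

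Corneal epithelial transcripts dominated in both strains. The 8 epithelial markers with reads summed to between 1897000 and 2271000 normalized reads in BALB/cN and between 1914000 and 2183000 in C57BL/6N. BALB/cN replicate 2 and C57BL/6N replicates 3 and 4 were poor in stromal transcripts, with a mean rlog of the 10 stromal markers of 11.49, 10.92 and 10.89 against 12.98 to 13.65 in the others. BALB/cN replicates 1 and 4 were rich in lens and pigment transcripts. Called differences that were lost without either set of corneas are given with those values too. In bulk tissue, fewer cells of a type and less RNA per cell cannot be told apart.

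A difference was called at an adjusted p of 0.01 or less from limma, after Benjamini-Hochberg adjustment over all 25402 genes tested. By this rule 2 of the 10 members differed between the strains, where 5.74% of all genes did. Il1r1, the signaling receptor of IL-1, was lower in BALB/cN (2.91% of all genes were called lower). Il33, the epithelial alarmin, was higher in BALB/cN (2.83% were called higher). Without any overlap between the strains were 4 members, Il1r1, Il33, Il1rn and Il18, where 18.3% of all genes were separated in this way. The median difference of the members was -0.17 on the rlog scale, against 0.0077 over all genes tested.

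The reference promoters of the genes with called differences are shown first, because the later comparisons concern where these genes lie and how they are read. Il1r1 and Il33 each have 2 annotated starts, and Il1rl2 is the gene beside Il1r1 that was called as well. Each line gives the 250 bases before a start on the plus strand of GRCm38.p6 (RefSeq), 5′ to 3′. Capitals mark matches to an NF-κB motif (GGG and CC with any 5 bases between them) or a TATA box (TATAAA), each searched on both strands. An AP-1 motif (TGANTCA) and an interferon response core (GAAA repeated after any 2 bases) were searched as well and matched none of these 5 windows.
Il1r1, first start, chr1:40224830-40225079: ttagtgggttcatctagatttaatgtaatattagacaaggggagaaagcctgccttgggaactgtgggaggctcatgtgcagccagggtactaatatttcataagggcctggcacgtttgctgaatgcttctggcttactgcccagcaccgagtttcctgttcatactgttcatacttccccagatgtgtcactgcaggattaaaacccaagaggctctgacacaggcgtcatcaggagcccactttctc
Il1r1, second start, chr1:40266336-40266585: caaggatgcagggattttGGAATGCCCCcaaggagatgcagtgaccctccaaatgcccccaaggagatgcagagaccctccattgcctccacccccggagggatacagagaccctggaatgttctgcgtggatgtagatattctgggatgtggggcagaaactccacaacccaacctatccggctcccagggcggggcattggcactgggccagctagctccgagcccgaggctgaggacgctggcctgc
Il1rl2, chr1:40324339-40324588: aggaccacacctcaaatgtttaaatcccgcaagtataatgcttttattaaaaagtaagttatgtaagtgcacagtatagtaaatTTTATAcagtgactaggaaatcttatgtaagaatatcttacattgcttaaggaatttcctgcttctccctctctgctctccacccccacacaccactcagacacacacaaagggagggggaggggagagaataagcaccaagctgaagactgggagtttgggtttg
Il33, first start, chr19:29924863-29925112: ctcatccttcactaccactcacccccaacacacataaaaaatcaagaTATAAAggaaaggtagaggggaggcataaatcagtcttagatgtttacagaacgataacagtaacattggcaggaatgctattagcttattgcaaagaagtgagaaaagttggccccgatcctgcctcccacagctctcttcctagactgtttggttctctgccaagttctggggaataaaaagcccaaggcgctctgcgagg
Il33, second start, chr19:29945540-29945789: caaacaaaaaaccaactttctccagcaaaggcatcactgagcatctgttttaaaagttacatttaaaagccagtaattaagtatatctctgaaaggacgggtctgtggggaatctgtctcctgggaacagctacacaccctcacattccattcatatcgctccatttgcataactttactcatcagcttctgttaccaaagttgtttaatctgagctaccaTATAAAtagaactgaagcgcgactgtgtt
The second windows of Il1r1 and Il33 lie inside introns of their own genes, and no window overlaps an annotated exon. The first Il1r1 window holds none of the 4 motifs. The second has an NF-κB match on the minus strand at -232 to -223 from the start, a motif found in 45.8% of 32851 promoters of this length. A TATA box stands at -29 to -24 of the second Il33 start, at -203 to -198 of the first, and on the minus strand at -166 to -161 of Il1rl2, where 12.4% of all promoters hold one. A match is a description of letters only. Reads were counted per gene, so these data do not show which start was used.

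Il1r1 (ENSMUSG00000026072) lies on the plus strand of chromosome 1 from 40225080 to 40317257 (GRCm38) and encodes the receptor through which both IL-1 agonists act. Its rlog values were 7.91, 7.60, 7.40 and 7.87 in BALB/cN replicates 1 to 4 and 8.82, 8.52, 8.93 and 8.90 in C57BL/6N replicates 1 to 4. Every BALB/cN cornea stood below every C57BL/6N cornea, and C57BL/6N replicates 3 and 4, which were poor in stroma, were the highest. The rlog difference, BALB/cN minus C57BL/6N, was -1.09 (standard error 0.134, 95% confidence interval -1.40 to -0.79, adjusted p = 0.000688 from limma). In reads this was 169 ± 45.7 against 536 ± 92.6 normalized reads (SD, n = 4 each), or 3.17-fold lower in BALB/cN. An exact two-sided permutation test gave p = 0.0286, the smallest that 4 corneas against 4 allow. Without the 3 corneas poor in stroma the rlog difference was -0.94 and the call was lost (adjusted p = 0.0276 from limma). It was kept with each single cornea left out.

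Il33 (ENSMUSG00000024810, chromosome 19, plus strand, 29925114 to 29960718) encodes a nuclear cytokine that alerts innate immune cells when epithelium is breached. The BALB/cN corneas had rlog values of 7.39, 7.01, 7.17 and 7.31, and the C57BL/6N corneas had 6.09, 6.75, 6.45 and 6.32. The lowest BALB/cN cornea was above the highest C57BL/6N cornea, and C57BL/6N varied more. The rlog difference was 0.82 (standard error 0.145, 95% confidence interval 0.49 to 1.14, adjusted p = 0.00553 from limma, exact permutation p = 0.0286). Normalized reads averaged 189 ± 36.4 in BALB/cN and 64.9 ± 28.4 in C57BL/6N (SD, n = 4 each), 2.91-fold higher in BALB/cN. The call rested on having nearly all corneas. It was lost when BALB/cN replicate 1, 3 or 4 or C57BL/6N replicate 1, 3 or 4 was left out (adjusted p between 0.0127 and 0.0232 from limma), while the rlog difference stayed between 0.72 and 0.93. Without the 2 corneas rich in lens and pigment it was 0.69 (adjusted p = 0.103 from limma), and without the 3 poor in stroma 0.87 (adjusted p = 0.0459 from limma).

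Neither neighbor of Il33 on chromosome 19 was called. Ranbp6, the nearest tested protein-coding gene before it, had an rlog difference of -0.13 (adjusted p = 0.292 from limma), and Uhrf2, the nearest after it, of -0.07 (adjusted p = 0.558 from limma). The strains overlapped in both.

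Among the IL-1 agonists, Il1a was abundant and Il1b weakly detected. Il1a (chromosome 2, 129299610 to 129309972) had rlog values of 9.72, 9.81, 10.30 and 10.24 in BALB/cN and 10.20, 10.24, 10.36 and 10.26 in C57BL/6N. BALB/cN replicates 1 and 2 were low, and the other 2 reached the C57BL/6N values. Its rlog difference of -0.25 (95% confidence interval -0.54 to 0.04) was not called (adjusted p = 0.291 from limma). The strains averaged 1031 ± 287 and 1271 ± 79.9 normalized reads (SD, n = 4 each).

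Il1b (chromosome 2, 129364570 to 129371139), the form secreted by activated myeloid cells, had 41, 8, 5 and 9 recovered reads in the BALB/cN corneas and 11, 7, 6 and 5 in the C57BL/6N corneas. BALB/cN replicate 1 alone was high, and the other 7 corneas shared a narrow range. The rlog difference was 0.09 (95% confidence interval -0.14 to 0.31, adjusted p = 0.645 from limma) and turned to -0.02 without that cornea. Exons of Il1a and Il1b overlap antisense genes by 222 and 25 bases, and the strand setting of the counting is not given in the sources used here.

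Il1rn (chromosome 2, plus strand, 24336853 to 24351494), which blocks the receptor, was at rlog values of 6.99, 7.10, 7.64 and 7.54 in BALB/cN and 8.25, 7.98, 7.85 and 7.76 in C57BL/6N. The strains were separated, though by a small margin between BALB/cN replicate 3 and C57BL/6N replicate 4. Normalized reads averaged 143 ± 55.2 in BALB/cN and 290 ± 69.3 in C57BL/6N (SD, n = 4 each). The rlog difference of -0.64 (95% confidence interval -1.01 to -0.27) did not pass the threshold (adjusted p = 0.0363 from limma, exact permutation p = 0.0286). With the stromal transcript level as a covariate it was -0.71 and passed (adjusted p = 0.00656 from limma).

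Il18 (chromosome 9, 50554827 to 50581840) was the most abundant member, at rlog values of 10.25, 10.48, 10.45 and 10.36 in BALB/cN and 10.58, 10.59, 10.91 and 11.01 in C57BL/6N. All BALB/cN corneas were below all C57BL/6N corneas. The highest values belonged to C57BL/6N replicates 3 and 4, which were poor in stroma. The rlog difference was -0.39 (95% confidence interval -0.63 to -0.15, adjusted p = 0.0452 from limma, exact permutation p = 0.0286), and with the stromal covariate -0.32 (adjusted p = 0.00279 from limma). The part of tissue composition in these differences was not tested beyond this covariate and the leave-out fits.

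Il18bp (chromosome 7, 102014885 to 102018690), which neutralizes IL-18, had rlog values between 7.68 and 7.88 in BALB/cN and between 7.88 and 8.42 in C57BL/6N. C57BL/6N replicate 3 was the highest cornea, and the ranges touched. Its rlog difference of -0.27 was not called (adjusted p = 0.215 from limma, exact permutation p = 0.0571). Its exons overlap the abundant Numa1 on the other strand by 80 bases.

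**Figure D1:**
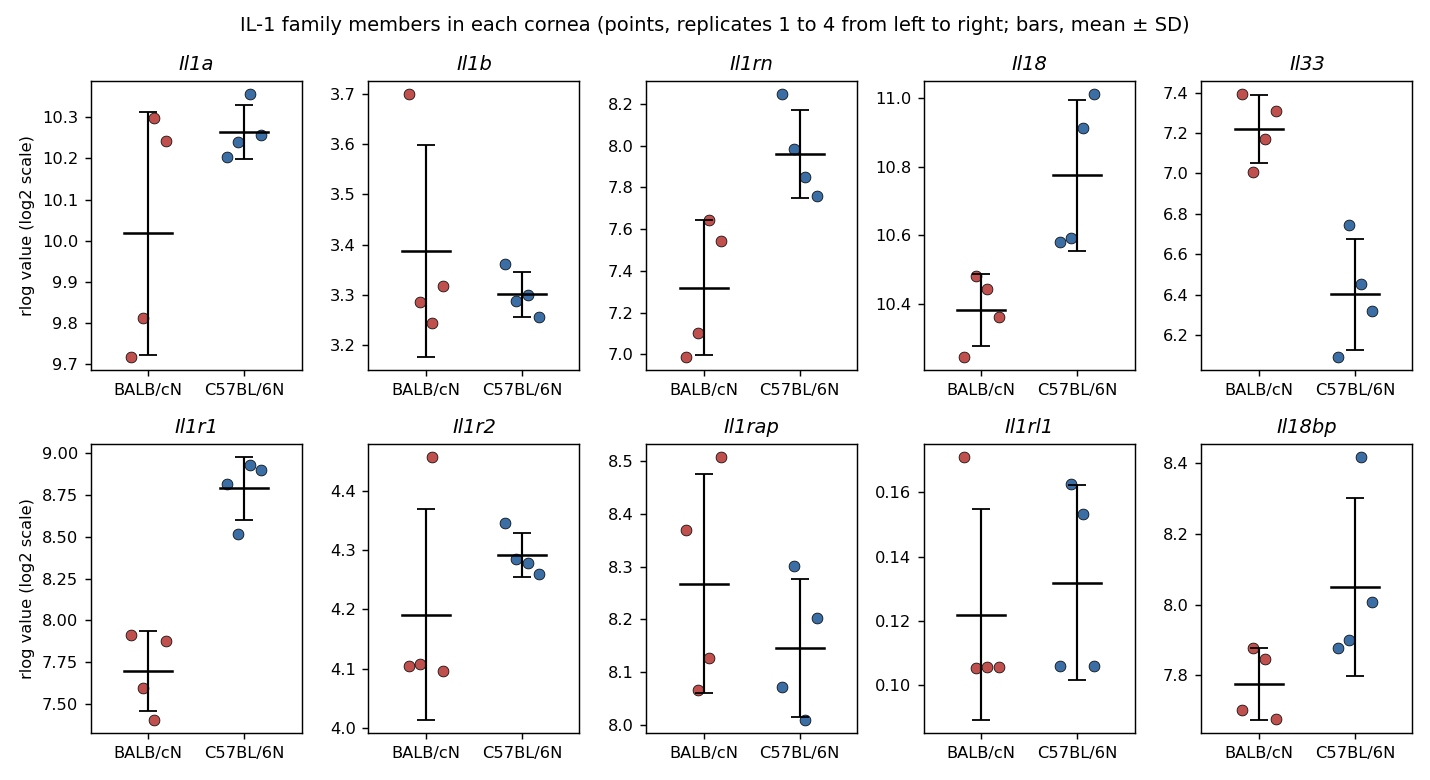
The rlog value (log2 scale, y axis) of each of the 10 members in every cornea, with BALB/cN in red and C57BL/6N in blue, points for corneas and bars for the mean ± SD (n = 4). Il1r1, Il1rn and Il18 are lower and Il33 is higher in all 4 BALB/cN corneas, while single BALB/cN corneas stand out for Il1b, Il1r2 and Il1rl1, and each panel has its own axis range.

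None of the other receptor chains was called. Il1rap (chromosome 16, 26581704 to 26730117), the co-receptor of IL-1, IL-33 and IL-36, ranged from 8.07 to 8.51 on the rlog scale in BALB/cN and from 8.01 to 8.30 in C57BL/6N, with a difference of 0.12 (95% confidence interval -0.13 to 0.38, adjusted p = 0.564 from limma). The decoy Il1r2 (chromosome 1, 40074079 to 40125231) had 12, 12, 37 and 10 recovered reads in BALB/cN and 26, 22, 17 and 19 in C57BL/6N. BALB/cN replicate 3 lay above all the others, the remaining BALB/cN corneas lay below all C57BL/6N corneas, and the rlog difference was -0.10 (adjusted p = 0.567 from limma).

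Il1rl1 (chromosome 1, 40429570 to 40465415), the receptor of IL-33 known from mast cells and innate lymphoid cells, was barely detected. It had 4, 0, 0 and 0 recovered reads in BALB/cN and 0, 3, 2 and 0 in C57BL/6N. A count of 0 allows up to 3 reads in a cornea, for counting error only, so no difference was detectable at this depth. Markers of the cells that carry this receptor, apart from Kit, had few reads too. Of the mast cell list, Fcer1a was at 0 in every cornea, and Mcpt4 and Ms4a2 averaged under 0.5 normalized reads in either strain. Hdc had 19.4 normalized reads in BALB/cN and 22.1 in C57BL/6N. The list sum came almost wholly from Kit, which other cells express too. The T and innate lymphoid cell list summed to 21.85 to 58.13 normalized reads in BALB/cN and 35.99 to 108.7 in C57BL/6N. Its Cd3d, Cd8a and Nkg7 were at 0 in every cornea, and Trac had 7.36 against 21.2 normalized reads.

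Compared per length, as normalized reads per kb of summed exons, the members spanned from 1523 for Il18 to 0.16 for Il1rl1. Over all 8 corneas the order was Il18, Il1a (583), Il18bp (81.8), Il1r1 (55.4), Il33 (43.9), Il1rn (39.1), Il1rap (26.4), Il1r2 (10.2), Il1b (5.68) and Il1rl1. The same order came from the rlog values less the log2 length. In reads per kb, Il18, Il1a and Il1rl1 did not overlap their neighbors in this order, and Il1rap did not overlap Il1r2. From Il18bp to Il1rap each member overlapped the next, and Il1r2 (5.08 to 18.2) overlapped Il1b (2.47 to 18.4), which were apart on the rlog scale alone. The strains ordered this middle group differently. In BALB/cN, Il33 ranked 4 with 65.4 ± 12.6 reads per kb and Il1r1 ranked 6 with 26.6 ± 7.19. In C57BL/6N, Il1r1 ranked 4 with 84.2 ± 14.5 and Il33 ranked 7 with 22.5 ± 9.85 (SD, n = 4 each).

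**Figure D2:**
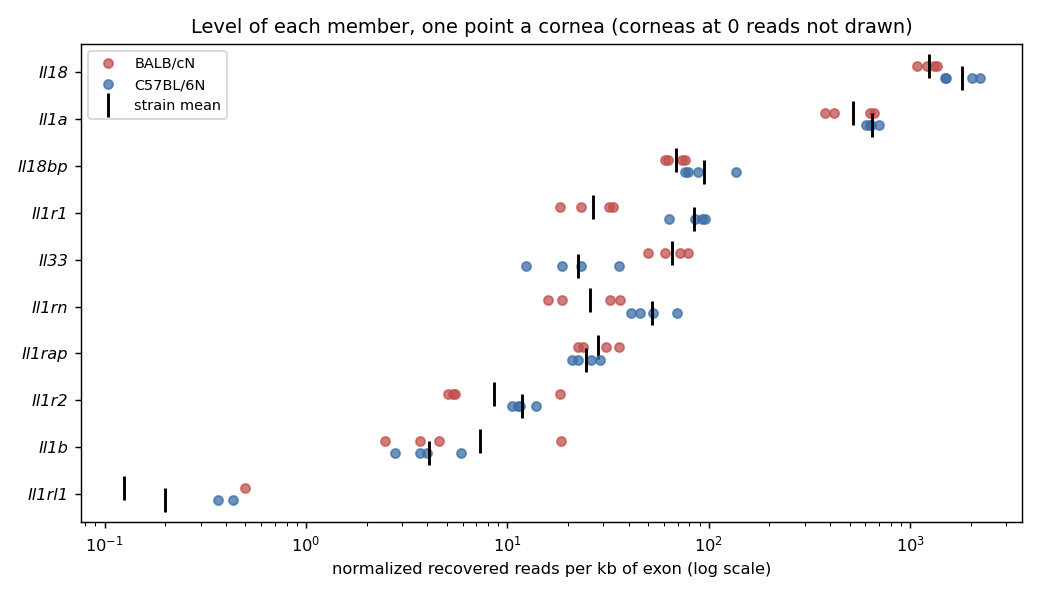
Normalized recovered reads per kb of exon (x axis, log scale) for each member, with a point for each cornea above 0 reads (BALB/cN red, C57BL/6N blue) and a bar for each strain mean. Il18 and Il1a stand above all other members in every cornea, Il33 and Il1r1 trade places between the strains, and Il1rl1 was at 0 in 5 of 8 corneas.

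Set against their partners within each cornea, 4 of 5 pairs of antagonist or receptor and ligand had strains that did not overlap. Each of these 4 pairs holds Il1rn, Il1r1 or Il33, which were separated by themselves, so this count is not independent of theirs. These balances are differences of rlog values between genes that are not corrected for length, and they are a description without a test. How often other pairs of genes are separated in this way was not examined. Il1rn minus Il1a was -2.73, -2.71, -2.66 and -2.70 in BALB/cN and -1.96, -2.26, -2.51 and -2.50 in C57BL/6N. It was nearly constant over the BALB/cN corneas although Il1a itself varied among them. Il1rn minus Il1b averaged 3.93 ± 0.49 in BALB/cN and 4.66 ± 0.17 in C57BL/6N (SD, n = 4 each). By both measures there was less antagonist per agonist transcript in BALB/cN, by -0.39 and -0.73 on the rlog scale. The measures are not independent, as they share Il1rn, which by itself differed by -0.64 and was not called. Il1b had few reads and was high in BALB/cN replicate 1 alone.

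The decoy balance went the other way. Il1r2 minus Il1r1 was -3.51 ± 0.40 in BALB/cN and -4.50 ± 0.20 in C57BL/6N (SD, n = 4 each), a difference of 0.99, and Il1r1 by itself differed by -1.09. Il1rl1 minus Il33 was lower in BALB/cN by -0.83, with Il1rl1 near 0 reads throughout, and Il33 by itself differed by 0.82. This balance thus restates the difference of Il33. Il18bp minus Il18 averaged -2.61 and -2.72, and its strains overlapped.

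**Figure D3:**
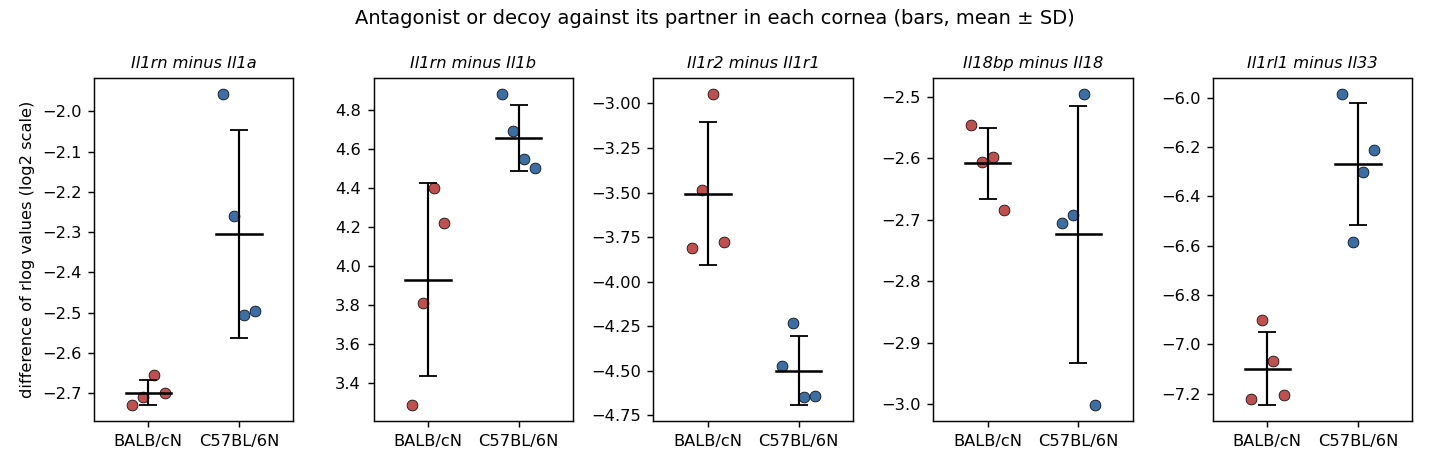
Difference of rlog values within each cornea (y axis, log2 scale) for 5 pairs of antagonist, decoy or receptor and its partner, with points for corneas (BALB/cN red, C57BL/6N blue) and bars for the mean ± SD (n = 4). The strains do not overlap in 4 pairs and overlap for Il18bp minus Il18, and each panel has its own axis range.

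Il1r1 belongs to a cluster of 6 IL-1 family receptor genes on the plus strand of chromosome 1, in the order Il1r2, Il1r1, Il1rl2, Il1rl1, Il18r1 and Il18rap. Only the adjacent Il1r1 and Il1rl2 were called, both lower in BALB/cN. Il1rl2 (ENSMUSG00000070942, 40324610 to 40367562) is the receptor of the IL-36 cytokines of epithelia, and it starts 99.5 kb from the start of Il1r1. It had rlog values of 9.19, 9.53, 9.35 and 9.50 in BALB/cN and 10.15, 10.04, 10.32 and 10.29 in C57BL/6N. The strains were well apart, with a difference of -0.81 (adjusted p = 0.000482 from limma, standard error 0.0943), that is, 602 ± 92.3 against 1313 ± 157 normalized reads (SD, n = 4 each). Without the 2 corneas rich in lens and pigment its adjusted p was 0.0111 from limma. Il18r1, a chain of the IL-18 receptor, had 27.5 against 42.7 normalized reads (rlog difference -0.19, adjusted p = 0.382 from limma), and Il18rap, its partner chain, had 0.71 against 2.27. The 4 genes of the cluster that were not called were all weakly expressed, Il18r1 being the most abundant of them.

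**Figure D4:**
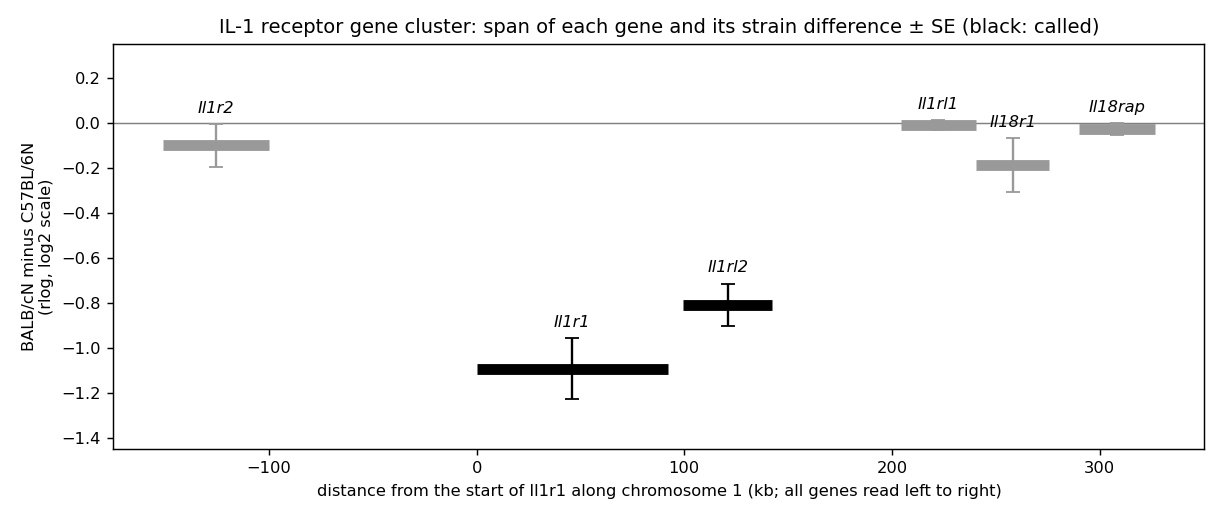
The IL-1 receptor cluster, with each gene drawn as a bar over its span in kb from the start of Il1r1 (x axis) at the height of its rlog difference BALB/cN minus C57BL/6N (y axis, log2 scale, whiskers ± SE). Il1r1 at -1.09 and Il1rl2 at -0.81 are the called genes in black, and the 4 gray genes lie between -0.19 and -0.01.

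The genes whose pattern over the 8 corneas was most like a called member, by the root mean square difference of mean-centered rlog values among tested protein-coding genes, were Phactr1 (0.0995) and Trank1 (0.102) for Il1r1 and Tmem163 (0.145) and Slc6a4 (0.147) for Il33. Phactr1 and Trank1 had rlog differences of -1.07 and -1.05, and Tmem163 and Slc6a4 of 0.72 and 0.84. The strains were separated in each. Since likeness was measured on these same corneas, such differences and separation follow from the choice and are no further result.

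Around the members, 7 lists cover the rest of the pathway with 85 genes, of which 67 were tested, 9 were at 0 in every cornea and 9 had a mean rlog below 0. By limma 9 of the 67 were called (13.4%), 3 higher and 6 lower in BALB/cN, where 5.74% of all genes were. The strains were separated in 22 of the 67, where 18.3% of all genes were separated. Their median difference was -0.02 on the rlog scale, against 0.0077 over all genes.

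None of the 4 tested IL-36 ligands was called by limma at 0.01, with 2 at an unadjusted p under 0.05 and 0 by limma voom. Il36g, an agonist, had 531 against 528 normalized reads. Of the other agonists, Il36a had 110 ± 55.1 in BALB/cN and 40.6 ± 14.9 in C57BL/6N (SD, n = 4 each), and the strains overlapped. The rlog difference of Il36a, 0.58, was not called (adjusted p = 0.0755 from limma). Il36b had 51.1 against 70.8 normalized reads (adjusted p = 0.41 from limma). Il36rn, the antagonist that binds Il1rl2, had 131 ± 40.9 in BALB/cN and 250 ± 27.5 in C57BL/6N (SD, n = 4 each), and its rlog difference of -0.57 did not pass (adjusted p = 0.0224 from limma). Among 6 further receptors, Il1rl2 was the only one called. Sigirr, an inhibitory receptor of the family, had an rlog difference of 0.13 (adjusted p = 0.393 from limma).

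Of 14 adaptors and kinases behind the receptors, 2 were called, both higher in BALB/cN, where 2.83% of all genes were called higher. Peli2, an E3 ubiquitin ligase that modifies IRAK kinases, had an rlog difference of 0.60 (adjusted p = 0.00163 from limma), with rlog values of 12.24 to 12.58 in BALB/cN and 11.72 to 11.94 in C57BL/6N. The call of Peli2 was lost after median centring (adjusted p = 0.0291 from limma) and without the 2 corneas rich in lens and pigment (adjusted p = 0.0145 from limma). Irak3, which restrains signaling by the other IRAK kinases, was at 256 ± 43.5 against 135 ± 24.8 normalized reads (SD, n = 4 each), and its rlog difference of 0.55 passed (adjusted p = 0.00864 from limma). The call of Irak3 was the least firm, since it was lost under 16 of 20 alternatives. These included leaving out any one of the 8 corneas (adjusted p between 0.0131 and 0.0309 from limma), the 3 poor in stroma (adjusted p = 0.067 from limma) and the 2 rich in lens and pigment (adjusted p = 0.0606 from limma). The most abundant genes of this list, Tab2 (-0.13) and Irak2 (0.03), were not called.

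The inflammasome and processing list had 2 called genes of 14 tested, both lower in BALB/cN, where 2.91% of all genes were called lower. Pycard encodes ASC, the adaptor that joins sensors to caspase-1, and had rlog values of 9.72, 9.90, 9.96 and 9.83 in BALB/cN and 10.67, 10.70, 10.88 and 10.77 in C57BL/6N. The strains were far apart, by -0.90 on average (adjusted p = 3.82e-05 from limma, standard error 0.0713), that is, 822 ± 82.5 against 1932 ± 166 normalized reads (SD, n = 4 each). Nlrp1b, a sensor, had 11, 3, 4 and 1 recovered reads in BALB/cN and 64, 69, 102 and 75 in C57BL/6N (rlog difference -1.10, adjusted p = 0.000249 from limma). It has near-identical copies beside it on chromosome 11 between which counting can split reads. Of these copies, Nlrp1c-ps had 0 against 154 normalized reads and Nlrp1a 0 against 1.77. Summed with Nlrp1b they had 4.20 in BALB/cN and 242 in C57BL/6N, and the strains did not overlap. The sum was thus lower in BALB/cN as well. Reads that match more than 1 copy were not examined, so the size of the difference of Nlrp1b is uncertain. Casp1, the protease itself and named here after its values were seen, had 26, 8, 20 and 6 recovered reads in BALB/cN and 0, 3, 0 and 0 in C57BL/6N. The strains did not overlap, but the gene was not called (rlog difference 0.23, adjusted p = 0.0618 from limma). The abundant Capn1, a protease that cleaves the IL-1α precursor, and Nek7, a cofactor of the NLRP3 inflammasome, had differences of -0.01 and -0.10 and were not called.

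No gene of the 14 NF-κB factors and inhibitors was called by limma at 0.01, with 7 at an unadjusted p under 0.05 and 0 by limma voom. Nfkbiz and Rela, the most abundant, had rlog differences of -0.21 (adjusted p = 0.141 from limma) and -0.02 (adjusted p = 0.845 from limma).

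Of the 18 IL-1 target genes, 12 were tested and 3 were called, where 5.74% of all genes were. The neutrophil chemokines Cxcl1 and Cxcl2 were lower in BALB/cN. Cxcl2 had 1, 7, 12 and 7 recovered reads in BALB/cN and 147, 150, 32 and 94 in C57BL/6N, and Cxcl1 had 37, 30, 17 and 13 against 91, 93, 40 and 77. No BALB/cN cornea reached a C57BL/6N cornea in either gene, and C57BL/6N replicate 3 was the lowest of its strain in both. The rlog differences were -1.26 for Cxcl2 (adjusted p = 0.00243 from limma) and -0.65 for Cxcl1 (adjusted p = 0.00564 from limma). Cxcl1 lost its call without any one cornea other than C57BL/6N replicate 3 (adjusted p up to 0.0226 from limma), and without the 3 corneas poor in stroma (adjusted p = 0.0145 from limma). Cxcl2 lost its call without BALB/cN replicate 1 (adjusted p = 0.0119 from limma) and by limma voom on reads (adjusted p = 0.0132). Without the 2 corneas rich in lens and pigment both calls were lost (adjusted p = 0.0529 for Cxcl1 and 0.06 for Cxcl2 from limma).

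Ptges, which makes prostaglandin E2, was the called target that was higher in BALB/cN. Its rlog values were 9.34, 9.17, 9.48 and 9.49 in BALB/cN and 8.62, 8.71, 8.33 and 8.18 in C57BL/6N, a difference of 0.91 (adjusted p = 0.00143 from limma). The strains were separated, at 759 ± 105 against 308 ± 79.5 normalized reads (SD, n = 4 each). Without the 2 corneas rich in lens and pigment Ptges lost its call (adjusted p = 0.0419 from limma). Il6, Cxcl5, Csf2 and Saa3 were at 0 in every cornea. Zc3h12a, which degrades inflammatory mRNAs and was the most abundant target, had a difference of 0.10 (adjusted p = 0.478 from limma).

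Of the IL-18 and IL-33 targets, Areg, an epithelial growth factor, was called lower in BALB/cN, with 38.0 ± 11.9 against 106 ± 15.3 normalized reads (SD, n = 4 each) and an rlog difference of -0.62 (adjusted p = 0.00329 from limma). It lost the call without BALB/cN replicate 1, 2 or 4 or C57BL/6N replicate 1 or 3 (adjusted p between 0.0114 and 0.0144 from limma). It was also lost without the 3 corneas poor in stroma (adjusted p = 0.0333 from limma) and without the 2 rich in lens and pigment (adjusted p = 0.0599 from limma). Arg1 had a difference of 0.24 (adjusted p = 0.171 from limma), and Ifng and Il13 were at 0 in every cornea.

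**Figure D5:**
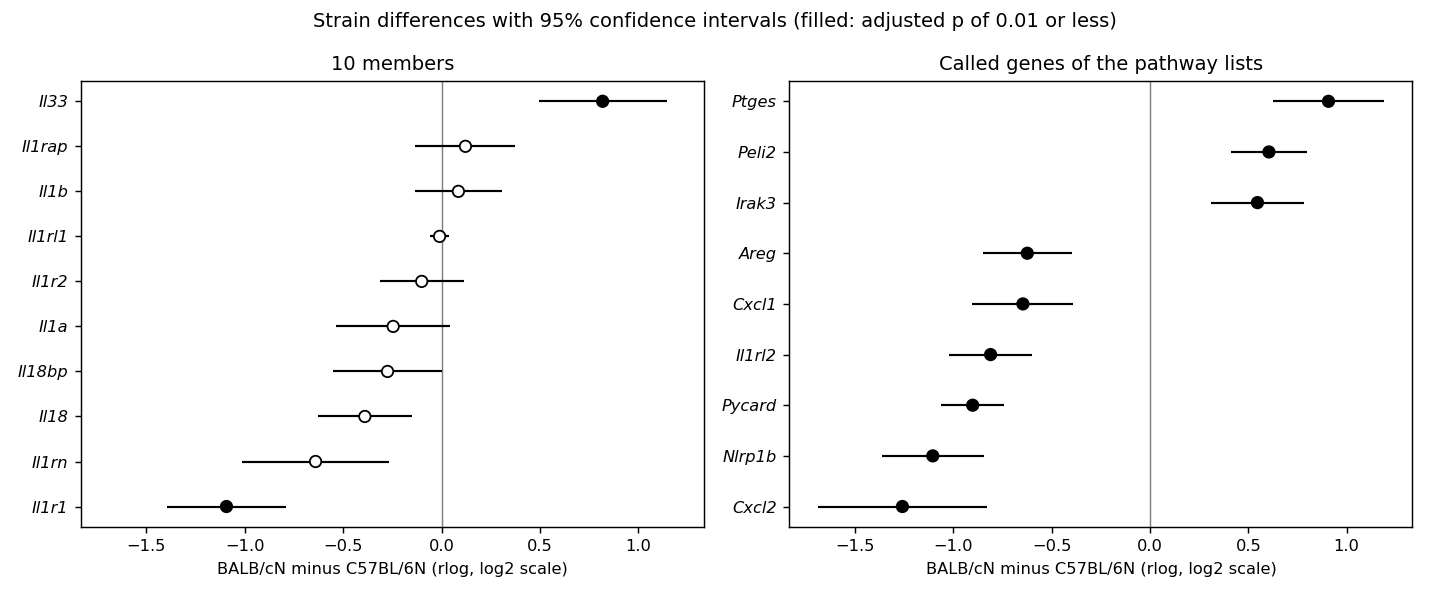
Strain difference, BALB/cN minus C57BL/6N, on the rlog scale (x axis, log2 scale) with 95% confidence intervals for the 10 members (left) and the 9 called pathway genes (right), filled where the adjusted p was 0.01 or less. Il1r1 and Il33 are the filled members, at -1.09 and 0.82, and 6 of the 9 pathway genes lie on the negative side.

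Markers of other cells moved with some of these differences, and their part in them was not tested. The macrophage and dendritic cell list summed to 3619 to 4241 normalized reads in BALB/cN and 3082 to 3538 in C57BL/6N. Of its 12 genes 1 was called, where 5.74% of all genes were: Aif1, higher at 340 against 43.0 normalized reads. The most abundant were Itgam, at 1383 against 1654, and Cd68, at 1319 against 1089. Differences were positive for 11 of 12, but the strains were separated in 2 alone, Aif1 and Cd68, where 18.3% of all genes were separated. Of the neutrophil list, Ly6g, Mpo, Cxcr2, Retnlg, Ngp and Elane were at 0 in every cornea, and Camp averaged under 0.5 normalized reads. Of the 3 tested, S100a9 was called lower in BALB/cN at 7.28 against 143 normalized reads, where 2.91% of all genes were called lower. The other two were not called and their strains overlapped, S100a8 at 4.64 against 3.75 and Csf3r at 13.5 against 4.46 normalized reads. The conjunctiva list had 5 of 8 genes called, all lower in BALB/cN (Krt13, Krt4, Krt19, Krt7 and Muc4), where 2.91% of all genes were called lower. The goblet cell mucin Muc5ac, at 260 against 1.52 normalized reads (adjusted p = 0.0225 from limma), and Krt8, at 33.0 against 6.51 (adjusted p = 0.0111 from limma), were not called but were higher in all BALB/cN corneas. Tff1 had 11 recovered reads in 1 BALB/cN cornea and 0 in every other cornea. The list sum, almost wholly Muc4, was 524300 to 773500 normalized reads in BALB/cN against 887600 to 1121000 in C57BL/6N. Cornified epidermis markers summed to 597 to 851 against 1457 to 1757, with 1 of 6 tested genes called (Cdsn, lower), where 5.74% of all genes were. Immediate early genes, a sign of dissection stress, had 0 of 10 called by limma (4 at an unadjusted p under 0.05, 0 by limma voom) and sums that overlapped between the strains. Their differences were positive, that is towards BALB/cN, for 8 of 10, where 13406 of all 25402 genes had a positive difference. The strains were separated in 4 (Jun, Junb, Dusp1 and Nr4a1), each higher in BALB/cN, where 18.3% of all genes were separated. Nr4a1 had 66.2 against 10.4 normalized reads. All called differences of members and pathway genes were lost when p-values were recalibrated to an empirical null, with adjusted p values from limma between 0.246 and 0.693.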

How the data were processed

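The authors sequenced strand-specific total RNA libraries as paired reads, aligned them with TopHat2 2.1.1 to GRCm38 carrying the variants of each strain, counted exons per gene with HTSeq 0.7.1 and transformed the counts with DESeq2 1.30. The deposited rlog values are scores on a log2 scale, normalized for library size, and 0 columns were left unused. Here limma 3.58.1 under R 4.3.3 (lmFit, eBayes with a variance trend) tested BALB/cN against C57BL/6N over genes with a mean rlog of at least 0, as the values are not counts. For each member a two-sided exact permutation test was added (scipy 1.17.1).

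Reads were recovered by inverting the rlog model, with constants fitted to 8185 genes. Of the values of 13830 other genes with 1 to 1000 mean reads, 93.2% lay within 0.1 of a whole number, against 20% by chance. At 1000 to 5000 mean reads, as for Il1a and Il18, 65.1% did. Recovered counts are therefore estimates, and since PCR copies molecules, limits from counts cover counting error only. Positions and exon lengths came from GENCODE M21, which held 31278 of the 31314 genes above 0. In a simulation of this comparison over 25404 genes, 196 of 200 changed genes and 4 unchanged ones were called. The simulated counts varied independently from gene to gene, without the differences in stroma, lens and pigment among the real corneas. They show that the procedure runs as intended and are not error rates for these data.

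Members and lists were chosen with earlier results of these data known. Named genes are the members, called pathway and marker genes, the 2 most abundant genes of each pathway list, the nearest tested neighbors of called members and the 2 genes most like each. Casp1, Il36rn, Il36a, Il36b, the copies of Nlrp1b, genes at 0, uncalled marker genes and the remaining cluster receptors were added after their values were seen. Chi-square per gene between 2 corneas of a strain was 10.1 to 85.9, more than counting error alone gives. It was 10.1 between C57BL/6N replicates 1 and 2 and 14.6 between replicates 3 and 4. Across these pairs it was 84 to 85.9. These values cannot tell whether corneas came from separate mice. Alternatives covered variance, filter, scaling, null distribution, replicate block, stromal covariate, limma voom on recovered reads, threshold and left-out corneas.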

Additional observations from a re-analysis of the deposited data

Results flagged for a closer look

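Single corneas stood far from the other 3 of their strain in 3 of 30 groups of 4 corneas, where chance gives 1 in 20, or 1.5. BALB/cN replicate 1 was high for Il1b, with an rlog value of 3.70 against 3.24 to 3.32, a gap of 0.835 of the range. BALB/cN replicate 3 was high for Il1r2, at 4.46 against 4.10 to 4.11 (0.966 of the range). BALB/cN replicate 1 was also high for Il1rl1, at 0.17 against 0.11 (0.995 of the range), which are 4 reads against 0.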

How the results depend on the processing

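Of the single-member comparisons with an alternative, 181 kept their direction and side of the threshold, 12 lost the call, 2 gained it and 4 changed sign. The sign changes were all of differences that were not called: Il1b at -0.018 without BALB/cN replicate 1 (range over left-out corneas -0.018 to 0.13) and at -0.036 without the 2 corneas rich in lens and pigment, Il1rl1 at 0.00031 without C57BL/6N replicate 2 (range -0.026 to 0.00031), and Il1rap at -0.049 without the 2 corneas rich in lens and pigment. Fits without the 3 corneas poor in stroma or the 2 rich in lens and pigment were chosen after seeing the data.

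Main counts were 2 members (1 higher, 1 lower) and 9 pathway genes (3 higher, 6 lower). With an empirical null, of standard deviation 1.67, 0 members and 0 pathway genes were called by limma, 0 higher and 0 lower, and over all genes 0 were called with 1725 at an unadjusted p under 0.05. With the stromal covariate 4 members (3 lower) and 15 pathway genes (7 higher) were called. At an adjusted p of 0.05 there were 4 members (3 lower) and 16 pathway genes (7 higher). Pathway genes called higher numbered 5 without a variance trend and 1 after median centring. Over all genes 745 and 413 were called higher in these fits, against 718 in the main fit. Without the 3 corneas poor in stroma 0 members were called (0 higher, 0 lower), and without the 2 rich in lens and pigment 1 member (0 higher) and 2 pathway genes (0 higher, 2 lower). Over all 25402 genes tested, 1458 were called in the main fit, 2422 with the stromal covariate and 2842 at an adjusted p of 0.05. Calls over all genes numbered 852 without the 3 corneas poor in stroma and 447 without the 2 rich in lens and pigment. The cause of these changes in counts was not tested for any setting. Over the fits leaving out each cornea in turn, 1 to 2 members (0 to 1 higher), 6 to 7 pathway genes (2 to 3 higher, 3 to 5 lower) were called. Over all genes these fits called 953 to 1163. On recovered reads, the balance of Il1rn minus Il1a was -0.74 and that of Il1rn minus Il1b -1.50, as the rlog values are shrunken.

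Corneas that share a replicate number were not treated as pairs in the main fit. Their deviations from the strain means had correlations of 0.305, -0.53, -0.203 and -0.454. These correlations cannot tell whether such corneas shared a batch, as stromal content varied among the corneas too. With the replicate block, 1 member (0 higher) and 3 pathway genes (0 higher, 3 lower) were called. Over all genes 554 were called with this block, against 1458 in the main fit. Il1r1 kept its call (adjusted p = 0.00669 from limma) and Il33 lost it (adjusted p = 0.0548 from limma). Il1b, Il1r2 and Il1rl1 were limited by depth.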
